A study of Mus musculus with 10 samples.

Results

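The genes described are carriers of amino acids and of related small molecules in the cell membrane and in lysosomes. They were taken from the deposited gene table by symbol, as the genes named by a number after Slc1a, Slc3a, Slc6a, Slc7a, Slc36a, Slc38a or Slc43a, except Slc1a3, Slc7a5, Slc7a8 and Slc38a4. This gave 55 of the 18725 genes in the table, and 40 of them had enough counts to be tested. The rule goes by symbol, but it was set with earlier results of these data known, and the 4 genes left out were all lower in hypothyroid libraries (log2 fold change -1.06 for Slc1a3, -0.43 for Slc7a5, -1.73 for Slc7a8 and -1.56 for Slc38a4), although with library sizes alone 3 of them passed.

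RNA was sequenced from 10 libraries of mouse cochlea, 5 hypothyroid and 5 euthyroid, all from C57BL/6J mice at postnatal day 10. The tissue was the outer sulcus, an epithelial strip at the lateral wall of the cochlear duct that contains the root cells, with the spiral ligament below it. For the hypothyroid group, pregnant mice received methimazole (0.05%), sodium perchlorate monohydrate (1%) and sucrose (5%) in the water they drank, from embryonic day 17 on and through lactation, so the pups were treated by way of their mothers. The euthyroid group received vehicle over the same time, and the comparison asks how a lack of thyroid hormone alters development of this tissue. Whether the vehicle held sucrose is not given, so sucrose may differ between the groups as well. No genotype, transgene or deletion is named for either group. Libraries are numbered within each group, and the labels leave out whether a number stands for a separate animal, litter or pool. The p-values thus reflect spread between libraries alone, part of which may be technical.

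Most amino acids cannot cross a membrane by diffusion. Some carriers, such as those of families 1, 6 and 38, use the sodium gradient to concentrate their substrates. Others exchange one amino acid for another: the light chains of family 7 do so after joining, by a disulfide bridge, with a heavy chain from family 3 that brings them to the cell surface. In the inner ear, glutamate and glycine carriers are known around hair cell synapses, and taurine, creatine and cystine uptake serve osmotic balance, energy buffering and glutathione synthesis in many cells. The families also hold carriers of other compounds, among them serotonin (Slc6a4), creatine (Slc6a8), taurine (Slc6a6) and nucleobases (Slc43a3).

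The libraries held 19298145 to 19407592 estimated counts in the hypothyroid group and 19781921 to 20063961 in the euthyroid group. Markers of the labelled tissue were present in both groups. The summed level of 9 root cell and outer sulcus genes ran from 4168 to 5093 TPM in hypothyroid and from 8132 to 9529 TPM in euthyroid libraries, where TPM is a level adjusted for gene length and library total. Of these 9 genes 6 were lower, 2 were higher (Dpp10 7.09-fold and Aqp5 3.64-fold) and 1 did not pass. The sum of 8 spiral ligament fibrocyte genes ran from 7254 to 8859 TPM in hypothyroid and from 25020 to 32270 TPM in euthyroid libraries, with 5 genes lower and 3 higher (Tgfbi 3.32-fold, Aqp1 2.68-fold and Kcnk2 2.34-fold). One passage of the labels speaks of joint cartilage at an older age, while all other labels name the cochlea. Markers of several other cells differed as well. The marker lists, here and below, stand beside 37.7% higher and 34.1% lower among all 14862 genes tested. No marker list was tested as a set. All 9 osteoblast and osteocyte genes were lower (86.0 to 132 against 1691 to 2766 summed TPM, with Bglap2 at 0 counts in the hypothyroid group). Of 7 tested hair cell genes 5 were lower, 1 was higher (Myo7a, 2.45-fold) and 1 did not pass (summed level 12.9 to 16.4 against 64.3 to 191 TPM over all 8, with Slc26a5 at 0 counts in the hypothyroid group). All 9 macrophage genes were higher (561 to 699 against 318 to 347 TPM). Of 10 melanocyte genes 8 were higher and 2 lower (1121 to 2095 against 548 to 785 TPM). The 2 lower ones were Kcnj10 (5.60-fold) and Mitf (2.15-fold). Of 8 endothelial genes 7 were lower (692 to 774 against 770 to 897 TPM), as were all 4 tested osteoclast genes (131 to 176 against 234 to 322 TPM over the list of 5). Of 7 chondrocyte genes 4 were lower and 2 higher (8857 to 9566 against 18703 to 20230 TPM). Other lists changed little or both ways. Of 5 tested marginal cell genes 2 were lower and 3 did not pass, and of 8 red blood cell genes 2 were lower and 6 did not pass. Of 6 Schwann cell genes 2 were higher, 2 lower and 2 did not pass. With library sizes alone, 5 endothelial, 3 osteoclast, 8 osteoblast and osteocyte genes and 1 Schwann cell gene were lower. Under that scaling 3 chondrocyte genes and 1 marginal cell gene were higher. The part of these cell types in the results below was not tested. In bulk tissue, fewer cells of a type and less RNA per cell cannot be told apart.

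Of the 40 tested members, 15 were higher in hypothyroid libraries, 15 were lower and 10 did not pass (edgeR quasi-likelihood test, Benjamini-Hochberg adjusted p under 0.05). That is 37.5% higher and 37.5% lower, beside 37.7% higher and 34.1% lower among all 14862 genes tested. The share of members called in either direction, 75.0%, lay near the 71.8% of all genes, and so the number of calls is not a result about these carriers. At least 2-fold changes were found in 6 members upward (15%, beside 9.25% of all genes) and 7 downward (17.5%, beside 7.91%). The libraries of the 2 groups did not overlap in 26 members, or 65.0%, beside 57.9% of all genes. The median log2 fold change was -0.02 over tested members and 0.04 over all genes tested. The direction of small changes depended on scaling. With library sizes alone the median of all genes moved from 0.04 to 0.30 on the log2 scale, and the members split into 22 higher and 11 lower. Every member moved up by 0.26 to 0.27 between these scalings. By role, library sizes alone gave 2 higher and 0 lower of 5 cationic carriers (2 and 1 as reported), 3 and 0 of 4 GABA, betaine, taurine and creatine carriers (2 and 1), 3 and 2 of 5 glycine, proline and neutral carriers of family 6 (2 and 2) and 1 and 1 of 3 members of family 36 (0 and 2). Counts for the heavy chain, the light chains and families 1 and 43 were equal under both.

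**Figure D1:**
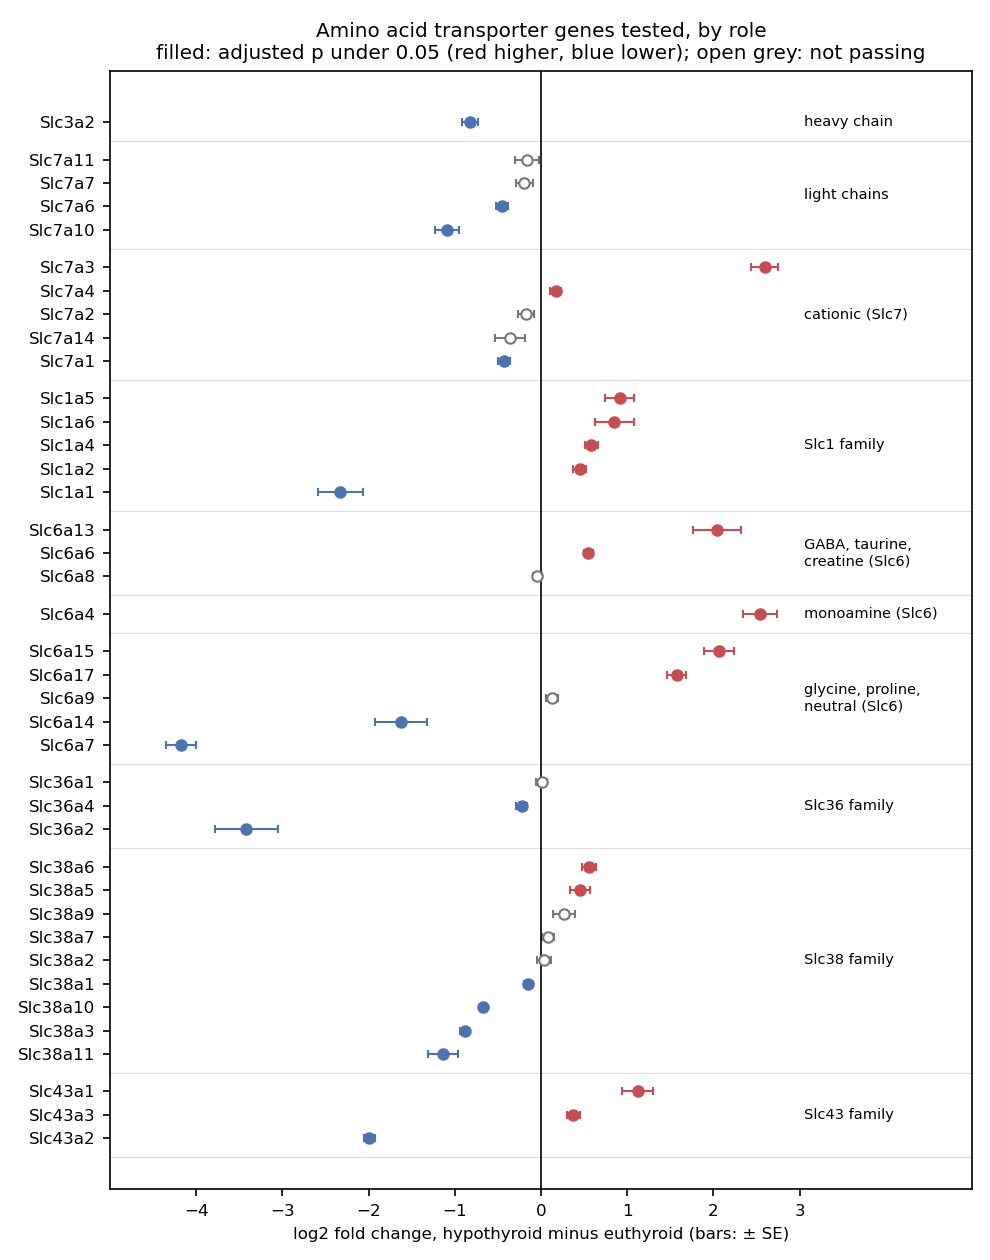
Log2 fold change (hypothyroid minus euthyroid, x axis) of 39 of the 40 tested members, grouped by role down the page, with bars of 1 SE from the edgeR fit. Filled points passed an adjusted p of 0.05 (red higher, blue lower) and open grey points did not. Members of most groups lie on both sides of 0, from Slc6a7 at -4.18 to Slc7a3 at 2.60.

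The heavy chain Slc3a2 (4F2hc), which carries most light chains of family 7 to the surface, was the most abundant member and was lower in hypothyroid tissue. Its level was 138, 161, 169.7, 156 and 138 CPM (counts scaled to a common library size and adjusted for library composition) in hypothyroid libraries 1 to 5, against 238, 225, 308, 304 and 279.7 CPM in euthyroid libraries 1 to 5. Every hypothyroid library lay below every euthyroid one, a 1.78-fold difference (log2 fold change -0.83, SE 0.09, edgeR adjusted p = 4.07e-06). The other heavy chain, Slc3a1 (rBAT), which serves cystine uptake in kidney and gut, was close to absent with 28 counts over the hypothyroid and 27 over the euthyroid libraries, and was not tested. It had 0.0468, 0.380, 0.289, 0.323 and 0.283 CPM in hypothyroid libraries, against 0.432, 0.162, 0.226, 0.225 and 0.443 CPM in euthyroid ones, and the groups overlapped.

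Among the light chains, 2 of 4 tested members fell and 2 did not pass. Slc7a10 (Asc-1), an exchanger of small neutral amino acids including D-serine, had 5.24, 2.71, 4.34, 3.65 and 3.86 CPM in hypothyroid libraries, against 8.27, 8.24, 9.08, 7.94 and 8.59 CPM in euthyroid ones. The groups did not overlap (log2 fold change -1.09, SE 0.14, edgeR adjusted p = 5.75e-06). Its exons share 377 bases with Lrp3, a gene on the opposite strand that also fell (42.3 ± 2.57 against 69.0 ± 2.88 CPM), and without strand information the reads of the overlap cannot be assigned. Slc7a6 (y+LAT2), which exchanges cationic for neutral amino acids, fell by 0.45 on the log2 scale (edgeR adjusted p = 2.09e-05). Slc7a7 (y+LAT1), of the same function, had a log2 fold change of -0.19 with an edgeR adjusted p of 0.0806. Slc7a11 (xCT), which imports cystine in exchange for glutamate, had 17.5 ± 3.61 CPM in hypothyroid and 19.6 ± 2.60 CPM in euthyroid libraries (SD, n = 5 each), a log2 fold change of -0.16 with an edgeR adjusted p of 0.29. For Slc7a7 and Slc7a11 the sign of the value turned to 0.07 and 0.10 with library sizes alone.

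Slc3a2 was also set against the sum of the 6 light chains known to pair with it, the 4 above plus Slc7a5 (LAT1) and Slc7a8 (LAT2), which were left out of the set and carry large neutral amino acids and thyroid hormone. The 6 light chains summed to 300 ± 36.4 TPM in hypothyroid and 433 ± 44.6 TPM in euthyroid libraries (SD, n = 5 each). Slc3a2 had 168 ± 13.2 TPM in hypothyroid and 254 ± 31.9 TPM in euthyroid libraries. The ratio of heavy chain to summed light chains was 0.564 ± 0.0312 in hypothyroid and 0.587 ± 0.0338 in euthyroid libraries, a difference smaller than the spread within a group. Most of the light chain sum came from Slc7a5 (200 ± 38 against 230 ± 27.2 TPM) and Slc7a8 (52.7 ± 3.08 against 149 ± 19.3 TPM).

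The cationic carriers moved apart. Slc7a3 (CAT3), which takes up arginine, lysine and ornithine, rose 6.05-fold and was the member with the largest increase. It had 8.93, 7.32, 8.29, 6.83 and 8.53 CPM in hypothyroid libraries, against 1.67, 0.916, 1.30, 1.13 and 1.55 CPM in euthyroid ones (log2 fold change 2.60, SE 0.16, edgeR adjusted p = 1.02e-09). The lowest hypothyroid library stood several times above the highest euthyroid one. Slc7a1 (CAT1), the widespread cationic carrier, was far more abundant and fell 1.34-fold (77.1 ± 9.57 CPM in hypothyroid against 104 ± 4.61 CPM in euthyroid libraries, edgeR adjusted p = 8.18e-05). Scaled by library sizes alone, it did not pass (adjusted p = 0.0671). Slc7a2 (CAT2) did not pass at a log2 fold change of -0.18 with an edgeR adjusted p of 0.101. Slc7a4, grouped here by sequence, had a small increase of 0.17 with an edgeR adjusted p of 0.0283, and it was not called without any of 7 libraries taken singly, with adjusted p of 0.0502 to 0.0721. It shares 554 exon bases with P2rx6 on the opposite strand, which rose 2.2-fold. Slc7a14 did not pass (-0.36). Per length, the 5 cationic carriers together had 93.7 ± 4.75 TPM in hypothyroid and 85.3 ± 3.41 TPM in euthyroid libraries. TPM carries no adjustment for library composition. The median log2 fold change of the 5 was -0.18 with that adjustment and 0.09 with library sizes alone. A joint direction is thus not claimed for them.

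In family 1, 4 of 5 tested carriers rose and 1 fell. Slc1a2 (GLT-1), a high-affinity glutamate carrier best known from astrocytes, was the most abundant of them, at 261 to 321 CPM in hypothyroid and 192 to 233 CPM in euthyroid libraries. The ranges did not overlap (log2 fold change 0.45, SE 0.07, edgeR adjusted p = 5.19e-05). The glutamine exchanger Slc1a5 (ASCT2) rose 1.88-fold to 11.8 ± 3.27 CPM, against 6.27 ± 0.701 CPM in euthyroid libraries (edgeR adjusted p = 0.000177). Slc1a4 (ASCT1), an exchanger of alanine, serine and cysteine, had 21.4 ± 1.19 CPM in hypothyroid and 14.3 ± 1.42 CPM in euthyroid libraries, 1.5-fold higher (edgeR adjusted p = 7.01e-06). Slc1a6 (EAAT4), a glutamate carrier of Purkinje cells, was low and rose 1.80-fold (edgeR adjusted p = 0.00311), with groups that overlapped.

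Slc1a1 (EAAC1), which takes up glutamate and cysteine, was the exception. It had 0.234, 0.380, 0.771, 0.508 and 0.283 CPM in hypothyroid libraries, against 2.38, 1.83, 2.09, 2.59 and 2.16 CPM in euthyroid ones. The groups did not overlap (log2 fold change -2.33, SE 0.26, edgeR adjusted p = 1.1e-06), but the hypothyroid sum was only 46 counts, against 200 in the euthyroid group. Its exons share 2631 bases with 4430402I18Rik on the opposite strand, which did not pass (log2 fold change 0.47 with an edgeR adjusted p of 0.174). Summed over family 1, the members had 97.6 ± 9.73 TPM in hypothyroid and 59.9 ± 3.61 TPM in euthyroid libraries. The sum leaves out Slc1a3 (GLAST), which had 88.5 ± 2.41 TPM in hypothyroid and 157 ± 14.1 TPM in euthyroid libraries, a decrease larger than the increase of that sum.

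A lack of amino acids is known to act through the transcription factor ATF4, which binds a composite element with the core TGATGNAA in the promoters of several carrier genes. The core was searched on both strands in the RefSeq promoters of build GRCm38.p6, from 250 bases before to 50 bases after each gene start. It was found in 3 of 27 tested members with a promoter in that table, and in 324 of 11596 tested genes. By promoter this was 4 of 39 for tested members and 342 of 14823, or 2.31%, for all tested genes. Slc7a7 has overlapping promoters that share a match and count separately, and the upstream one is printed below. The 3 genes are Slc7a11, Slc1a4 and Slc7a7, whose promoters are shown with each match in capitals. Slc7a11 is on chr3:50443564-50443863, Slc1a4 on chr11:20332664-20332963 and Slc7a7 on chr14:54417895-54418194, all on the minus strand and printed 5′ to 3′.
Slc7a11: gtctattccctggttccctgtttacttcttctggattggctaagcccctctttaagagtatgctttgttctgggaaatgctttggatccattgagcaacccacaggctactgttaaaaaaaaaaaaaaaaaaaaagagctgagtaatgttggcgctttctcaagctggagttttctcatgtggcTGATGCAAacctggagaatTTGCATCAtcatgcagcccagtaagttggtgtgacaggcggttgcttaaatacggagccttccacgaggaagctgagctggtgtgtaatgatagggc
Slc1a4: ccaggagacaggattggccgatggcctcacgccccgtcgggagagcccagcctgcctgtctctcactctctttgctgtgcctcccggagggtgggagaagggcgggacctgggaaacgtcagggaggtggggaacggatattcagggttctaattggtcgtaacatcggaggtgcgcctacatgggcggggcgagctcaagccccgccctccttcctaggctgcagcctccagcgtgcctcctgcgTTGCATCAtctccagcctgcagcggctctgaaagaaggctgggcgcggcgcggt
Slc7a7: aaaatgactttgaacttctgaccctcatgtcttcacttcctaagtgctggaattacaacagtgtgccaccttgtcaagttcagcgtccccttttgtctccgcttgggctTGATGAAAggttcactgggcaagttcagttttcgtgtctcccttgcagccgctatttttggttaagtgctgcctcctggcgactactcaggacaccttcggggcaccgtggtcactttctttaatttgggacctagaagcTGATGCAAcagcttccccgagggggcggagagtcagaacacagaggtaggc
Slc7a11 holds the core 66 bases before the start as TGATGCAA and, on the other strand, 47 bases before it as TTGCATCA, so that the copies face each other. Slc1a4 holds it on the other strand, in a match that begins 4 bases before the start and runs past it. Slc7a7 holds it at 141 bases before the start as TGATGAAA. It also holds TGATGCAA, in a match that begins 1 base before the start and runs past it. Of these 3 genes Slc1a4 rose, while Slc7a11 and Slc7a7 did not pass. The classical site of thyroid hormone receptors, a direct repeat of AGGTCA with a spacer of 4 bases, was searched on both strands too. It was found in 0 of 58 member promoters, in 0 of 14823 promoters of all tested genes and in 5 of 32851 promoters in all. Its absence thus does not set the members apart. A match describes letters only and does not show binding.

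Family 6 held the member that fell most and 4 of the 6 that rose at least 2-fold. Slc6a7 (PROT), a high-affinity proline carrier known from neurons, had 0.982, 0.713, 0.723, 1.2 and 1.18 CPM in hypothyroid libraries, against 12.8, 16.5, 20.5, 18.1 and 19.7 CPM in euthyroid ones. The hypothyroid group lay 18.1-fold lower and far from the euthyroid range (log2 fold change -4.18, SE 0.17, edgeR adjusted p = 1.87e-11). Slc6a14 (ATB0,+), which takes up neutral and cationic amino acids, was low and fell 3.07-fold (edgeR adjusted p = 0.000198), with 41 counts over the hypothyroid group, against 109 over the euthyroid group.

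Slc6a15 and Slc6a17, both carriers of neutral amino acids known from neurons, rose. Slc6a15 (B0AT2), which prefers branched-chain amino acids and proline, had 6.97, 10.8, 6.99, 11.1 and 7.30 CPM in hypothyroid libraries, against 1.95, 2.21, 2.03, 2.42 and 1.72 CPM in euthyroid ones. That is 4.18-fold higher with no overlap (log2 fold change 2.06, SE 0.17, edgeR adjusted p = 4.94e-08). Slc6a17 (NTT4), found on synaptic vesicles, had 19.6, 24.5, 25.5, 29.0 and 22.1 CPM in hypothyroid libraries, against 8.16, 9.59, 7.34, 8.17 and 7.15 CPM in euthyroid ones. It was 2.98-fold higher, again with no overlap (log2 fold change 1.58, SE 0.11, edgeR adjusted p = 5.58e-09). The glycine carrier Slc6a9 (GlyT1) did not pass (0.13 with an edgeR adjusted p of 0.121), but was called higher with library sizes alone (adjusted p = 0.000156) and with upper quartile factors (adjusted p = 0.00655). Of 6 neuronal marker genes 4 were tested, of which 2 were higher and 2 lower. Syt1 rose 3.28-fold and Nefh 2.38-fold, while Tubb3 fell 17.6-fold and Rbfox3 1.48-fold. With library sizes alone 2 were higher and 1 lower. The 6 genes summed to 27.9 to 37.6 TPM in hypothyroid and 21.1 to 31.4 TPM in euthyroid libraries.

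The serotonin transporter Slc6a4 rose 5.81-fold. It had 4.86, 3.99, 3.86, 6.51 and 5.94 CPM in hypothyroid libraries, against 0.756, 1.13, 0.846, 0.789 and 0.776 CPM in euthyroid ones (log2 fold change 2.54, SE 0.20, edgeR adjusted p = 2.26e-08). All hypothyroid libraries lay above 3 CPM and above every euthyroid library, of which library 2 was the highest. The dopamine and noradrenaline transporters Slc6a3 and Slc6a2 were too low to be tested, with 27 and 24 counts over the hypothyroid group and 6 and 26 over the euthyroid group.

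The taurine carrier Slc6a6 (TauT) was the most abundant member of family 6 and rose. It had 202, 233, 197, 209 and 219.5 CPM in hypothyroid libraries, against 150.1, 142, 136, 144 and 153 CPM in euthyroid ones. The groups did not overlap, 1.46-fold higher in hypothyroid tissue (log2 fold change 0.55, SE 0.05, edgeR adjusted p = 1.79e-07). The creatine carrier Slc6a8 did not pass (-0.04 with an edgeR adjusted p of 0.483), and with library sizes alone it was called higher (0.22, adjusted p = 0.00135). Of the GABA carriers, Slc6a13 (GAT2) rose 4.11-fold at a low level (146 counts over the hypothyroid against 30 over the euthyroid group, edgeR adjusted p = 1e-05). The taurine, creatine, GABA and betaine carriers together had 147 ± 6.34 TPM in hypothyroid and 101 ± 3.99 TPM in euthyroid libraries.

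**Figure D2:**
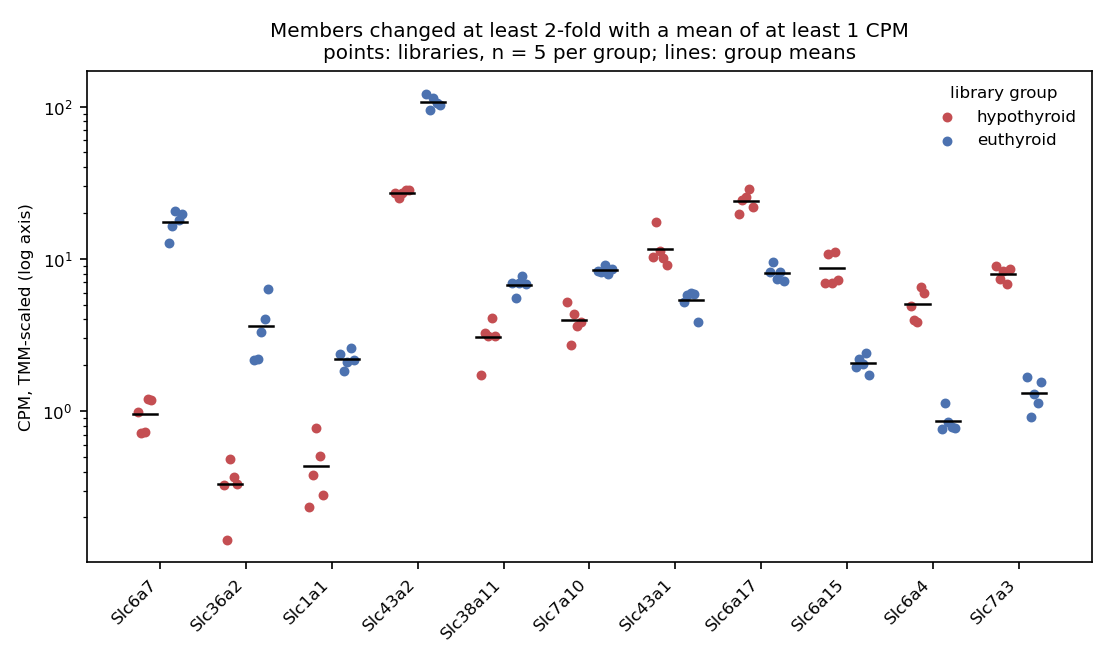
CPM scaled with TMM factors, on a log axis, of the 11 members with a mean of at least 1 CPM that changed at least 2-fold, ordered from the largest decrease to the largest increase. Each point is a library (red hypothyroid on the left of each pair, blue euthyroid on the right, n = 5 each) and lines are group means. In all 11 the points of the 2 groups are apart.

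Of 3 tested members of family 36, some carriers of which move small amino acids along with protons, 2 fell and 1 did not pass. Slc36a2 (PAT2), a carrier of glycine, alanine and proline, had 0.327, 0.143, 0.482, 0.369 and 0.330 CPM in hypothyroid libraries, against 2.16, 2.21, 3.33, 4.0 and 6.32 CPM in euthyroid ones. The euthyroid values were spread over a nearly 3-fold range, yet all lay above the hypothyroid ones (log2 fold change -3.42, SE 0.37, edgeR adjusted p = 1.1e-06). Slc36a1 (PAT1), which works at the lysosome and the gut surface, lies 19222 bases from Slc36a2 on chromosome 11 and did not pass (0.01 with an edgeR adjusted p of 0.926). With library sizes alone Slc36a1 was called higher (0.27, edgeR adjusted p = 0.00312). Slc36a4 had a small decrease (-0.23 with an edgeR adjusted p of 0.00432), and its value was 0.04 with library sizes alone (adjusted p = 0.532).

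Family 38, sodium-coupled carriers of glutamine and other neutral amino acids, held the largest share of carrier transcripts per length, 476 ± 22.1 TPM in hypothyroid and 516 ± 10.6 TPM in euthyroid libraries. Of 9 tested members 4 fell, 2 rose and 3 did not pass. With library sizes alone 6 were higher and 3 lower. Slc38a3 (SNAT3), a carrier that can take up or release glutamine, had 89.9, 88.7, 89.8, 86.2 and 99.7 CPM in hypothyroid libraries, against 169, 162, 180.2, 156 and 172 CPM in euthyroid ones. The groups were well apart, 1.85-fold lower in hypothyroid tissue (log2 fold change -0.88, SE 0.05, edgeR adjusted p = 6.69e-10). Slc38a10, whose transport role is less settled, had 173, 176, 183, 180.4 and 164 CPM in hypothyroid libraries, against 284, 262, 287, 274 and 286 CPM in euthyroid ones. It too fell without overlap (log2 fold change -0.67, SE 0.04, edgeR adjusted p = 2.74e-09).

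Slc38a11, whose substrates are not well known, was low and fell. It had 1.73, 3.28, 3.13, 4.11 and 3.11 CPM in hypothyroid libraries, against 6.92, 5.49, 6.94, 7.72 and 6.82 CPM in euthyroid ones (log2 fold change -1.14, SE 0.18, edgeR adjusted p = 3.32e-05). The highest hypothyroid library stayed below the lowest euthyroid one. Slc38a2 (SNAT2), a carrier induced by amino acid shortage, was among the 5 most abundant members and did not pass. It had 194, 249, 184, 190.2 and 218 CPM in hypothyroid libraries, against 189.9, 227, 199.9, 202 and 191 CPM in euthyroid ones (log2 fold change 0.04, SE 0.08, edgeR adjusted p = 0.686). The groups overlapped widely, although with library sizes alone its log2 fold change was 0.30 (adjusted p = 0.00388).

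Slc38a6 and Slc38a5 rose 1.47-fold and 1.37-fold (edgeR adjusted p = 2.39e-05 and 0.00214). Slc38a5 (SNAT5) carries glutamine, and its 5 values ran from 11.6 to 18.6 CPM in hypothyroid and from 9.80 to 11.4 CPM in euthyroid libraries. Slc38a1 (SNAT1) was slightly lower (-0.15 with an edgeR adjusted p of 0.0293) and was slightly higher with library sizes alone (0.12, adjusted p = 0.0450), so its direction was not fixed. Without euthyroid library 3 or 4 or hypothyroid library 2 or 4 its adjusted p was 0.0566 to 0.0794. The lysosomal members Slc38a9, which reports arginine to mTORC1, and Slc38a7, which exports glutamine, did not pass (0.27 with an edgeR adjusted p of 0.0739, and 0.08 with an edgeR adjusted p of 0.279). Without hypothyroid library 1 or 3 the adjusted p of Slc38a9 was 0.0378 and 0.0374. With library sizes alone Slc38a9 and Slc38a7 were called higher (0.53 and 0.34, edgeR adjusted p = 0.00128 and 0.000407). Upper quartile factors called them higher too (edgeR adjusted p = 0.0130 and 0.0168).

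Family 43 carriers, which let large neutral amino acids through without sodium, moved in opposite directions. Slc43a2 (LAT4), a carrier of leucine, methionine and phenylalanine, had 26.9, 25.1, 27.1, 28.2 and 28.3 CPM in hypothyroid libraries, against 122, 95.6, 114, 106 and 102 CPM in euthyroid ones. Both groups were tight and far apart, 3.98-fold lower in hypothyroid tissue (log2 fold change -1.99, SE 0.07, edgeR adjusted p = 1.49e-12). Slc43a1 (LAT3), with similar substrates, had 10.2, 17.4, 11.3, 10.2 and 9.05 CPM in hypothyroid libraries, against 5.19, 5.76, 5.98, 5.92 and 3.83 CPM in euthyroid ones. It rose 2.18-fold with no overlap (log2 fold change 1.12, SE 0.18, edgeR adjusted p = 6.06e-05). Its neighbour Slc43a3, 72958 bases away on chromosome 2 and a carrier of nucleobases, rose 1.30-fold (edgeR adjusted p = 0.00029). Per length, Slc43a2 had 11.4 ± 0.804 TPM in hypothyroid against 36.9 ± 3.78 TPM in euthyroid libraries, and Slc43a1 12.3 ± 3.36 against 4.78 ± 0.879 TPM. The order of the levels of both genes was thus Slc43a2 above Slc43a1 in euthyroid libraries, and in hypothyroid libraries their levels overlapped.

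**Figure D3:**
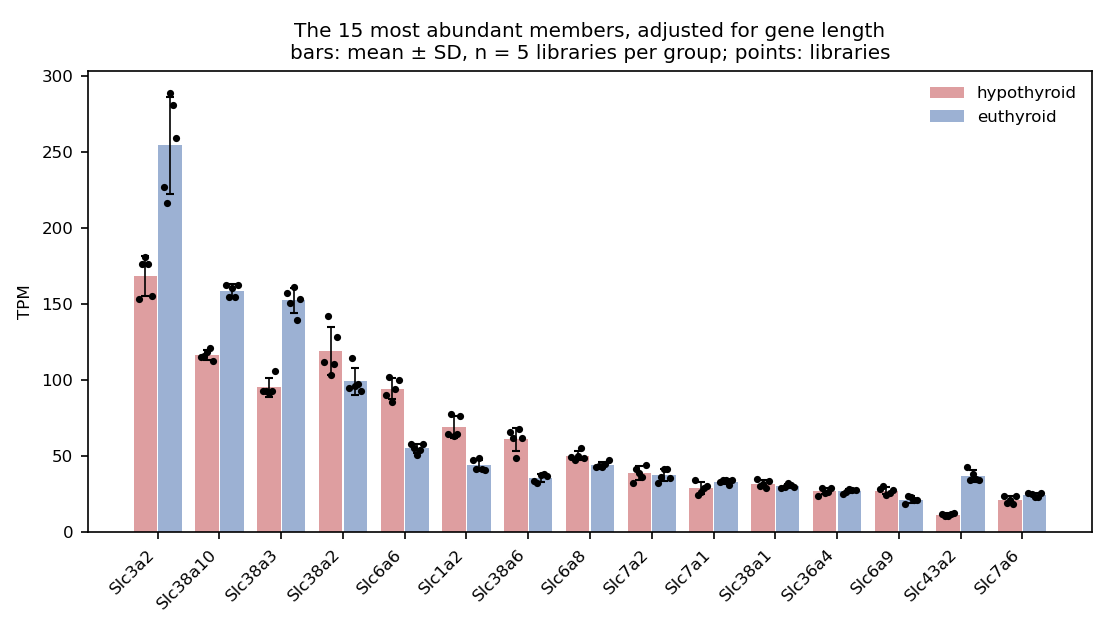
TPM, the level adjusted for gene length and library total, of the 15 members with the highest mean over all libraries. Bars are means with SD (red hypothyroid on the left, blue euthyroid on the right, n = 5 each) and points are libraries. Slc3a2 leads in both groups, and Slc6a6 at 94.2 ± 6.84 TPM in hypothyroid and 54.97 ± 3.0 TPM in euthyroid libraries is an abundant member that rose.

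Over all 55 members the summed level was 1178 ± 45.3 TPM in hypothyroid and 1215 ± 34.0 TPM in euthyroid libraries, and the ranges (1126 to 1233 and 1181 to 1267 TPM) overlapped. By mean TPM over all libraries the first 5 were Slc3a2, Slc38a10, Slc38a3, Slc38a2 and Slc6a6. In euthyroid libraries Slc38a10 (159 ± 4.14 TPM) and Slc38a3 (152 ± 8.29 TPM) followed Slc3a2, with values that overlapped. In hypothyroid libraries Slc38a2 (119 ± 15.6 TPM) and Slc38a10 (117 ± 3.32 TPM) followed it, also with overlapping values. TPM is a share of each library's total, so unlike the CPM used in the test it carries no adjustment for library composition. The overlap of the summed levels holds for TPM, and whether it holds with that adjustment was not tested.

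The 15 members without a test had 0 to 43 counts over the hypothyroid group and 1 to 51 over the euthyroid group. They include carriers of kidney and gut such as Slc3a1, its partner Slc7a9 (27 counts against 51), Slc6a18 (34 against 24) and Slc6a19 (23 against 3), the retinal glutamate carrier Slc1a7 (43 against 28), the spinal glycine carrier Slc6a5 (34 against 18), the GABA carrier Slc6a11 (22 against 14), the betaine carrier Slc6a12 (4 against 11), Slc6a16 (31 against 25) and Slc38a8 (34 against 9). Slc7a13 had 1 count in each group, and Slc6a21 and Slc7a15 had 0 counts in the hypothyroid group and 1 and 3 in the euthyroid group. At this depth no difference is claimed for them.

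Some members are neighbours in the genome, by their positions on GRCm38.p6. Slc36a2 (chr11:55158468-55185099) fell 10.7-fold, and Slc36a1 (chr11:55204322-55236330) did not pass. Slc43a1 (chr2:84838855-84863586) and Slc43a3 (chr2:84936545-84958509) both rose. Slc38a1 and Slc38a2 lie 43953 bases apart on chromosome 15. The direction of Slc38a1 turned with scaling and Slc38a2 did not pass. Slc6a13 rose, while its neighbour Slc6a12, 4852 bases away on chromosome 6, was too low to be tested. By the GENCODE annotation of GRCm38, Slc6a9 shares 1429 exon bases with Ccdc24 on the opposite strand, which rose 1.81-fold. Slc7a7 shares 232 with Oxa1l, which did not pass. Slc43a2 shares 922 bases with the antisense gene Gm45606 and Slc38a10 shares 367 with Gm11769, neither of which was tested. The reads of such overlaps cannot be assigned without strand.

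Genes that act on the same amino acids inside the cell also moved both ways, as all genes did. Each such list, here and below, stands beside 37.7% higher and 34.1% lower of all 14862 genes tested (median 0.04). With library sizes alone 8650 of all genes were higher and 2928 lower (median 0.30). No list was tested as a set, and a split near that of all genes is not a result about the list. Of 14 genes of the amino acid response, 4 were higher, 5 lower and 5 did not pass, with a median of 0.06 on the log2 scale (6 higher, 4 lower and 0.33 with library sizes alone). Atf4, the factor that drives this response, fell 1.63-fold to 106 ± 3.91 CPM, against 173 ± 5.73 CPM in euthyroid libraries. Its relative Atf5 fell 2.87-fold, and Cth, which makes cysteine, rose 2.71-fold (edgeR adjusted p = 8.18e-10, 3.17e-11 and 4.42e-07). Of 10 serine, glycine and one-carbon enzymes 6 were higher, 3 lower and 1 did not pass (median 0.27, and 0.53 with library sizes alone, where 7 were higher and 1 lower). Shmt1, which interconverts serine and glycine in the cytosol, rose 4.05-fold, Phgdh, the first enzyme of serine synthesis, rose 1.35-fold, and the mitochondrial folate enzyme Mthfd2 fell 2.85-fold (edgeR adjusted p = 3.1e-07, 1.51e-06 and 6.1e-08).

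Of 17 enzymes of glutamine, glutamate, proline and branched-chain metabolism 3 were higher, 8 lower and 6 did not pass (median -0.23, and 0.03 with library sizes alone, where 7 were higher and 4 lower). The aspartate aminotransferase Got1 fell 2.29-fold and Pycr1, which makes proline, 2.06-fold (edgeR adjusted p = 2.6e-07 and 3.54e-07). Pycr1 had 12.8 ± 1.55 CPM in hypothyroid and 26.5 ± 3.58 CPM in euthyroid libraries. Of 20 cytosolic aminoacyl-tRNA synthetases 13 were lower, 3 higher and 4 did not pass (median -0.22, and 0.04 with library sizes alone, where 5 were lower and 7 higher). The smallest adjusted p were those of Aars (1.54-fold lower), Gars (1.41-fold) and Cars (1.42-fold), at edgeR adjusted p of 2.98e-09, 6.46e-07 and 6.46e-07.

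Of 26 genes of amino acid sensing by mTORC1, the kinase complex that couples amino acid supply to growth, 8 were higher, 10 lower and 8 did not pass (median -0.06, and 0.20 with library sizes alone, where 16 were higher and 4 lower). Sec13, Lamtor1 and Rragd fell 1.47-fold, 1.51-fold and 1.61-fold (edgeR adjusted p = 2.93e-08, 2.51e-07 and 1.61e-06). Of 16 other tested carriers of amino acids or peptides 4 were higher, 8 lower and 4 did not pass (median -0.26, and 0.01 with library sizes alone, where 7 were higher and 6 lower). Among them the aromatic amino acid and thyroid hormone carrier Slc16a10 fell 2.95-fold, the mitochondrial aspartate and glutamate carrier Slc25a12 1.86-fold and Slc25a39, a mitochondrial glutathione carrier, 1.56-fold (edgeR adjusted p = 1.49e-10, 1.2e-09 and 2.57e-08).

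**Figure D4:**
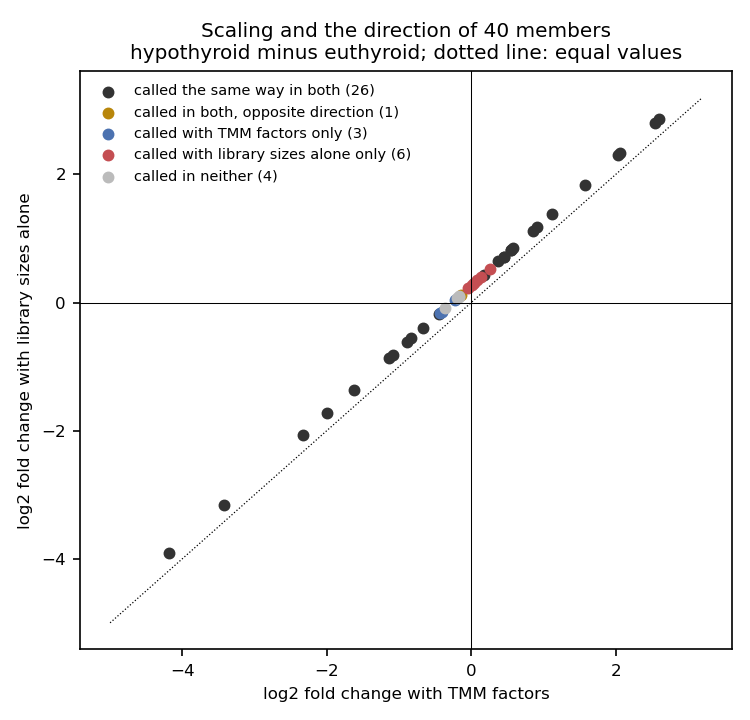
Log2 fold change (hypothyroid minus euthyroid) of the 40 tested members with TMM factors (x axis) and with library sizes alone (y axis), coloured by which of the 2 fits called the member. All points lie above the dotted line of equal values by 0.26 to 0.27. The fits shared 26 calls in the same direction, and 1 member, Slc38a1, was called in opposite directions.

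Under all 22 settings tried, counting those that could test them, 14 members were called higher and 10 lower each time. These include all 13 members with changes of at least 2-fold and, among the abundant ones, Slc3a2, Slc38a3, Slc38a10, Slc6a6, Slc1a2 and Slc38a6. Of the 13, Slc1a1 and Slc6a14 were tested in only 18 settings and Slc36a2 and Slc6a13 in 20. They had few counts in a group and dropped out with the minimum count of 50, so the settings say little about them. The remaining 6 calls, among them those of Slc7a6, Slc7a1, Slc36a4, Slc38a1 and Slc7a4, were each lost in at least 1 setting.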

How the data were processed

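Messenger RNA was captured by its poly(A) tail, primed with random hexamers and read as single ends of 50 bases, per the labels' protocols. Whether strand was kept is not stated. The submitters' processing notes name RSEM 1.2.12, HISAT2 2.0.4, Bowtie2 2.2.5 and the build GRCm38.p6, with roles not given in the sources used here. The authors deposited expected counts (estimated reads per gene, not always whole), together with TPM and FPKM values, both relative to gene length and to each library's total, per the file headers. A further 18 columns (scaled counts and group means) were not used.

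Expected counts were rounded. Genes were filtered with filterByExpr (minimum count 10), scaled with TMM factors and tested with edgeR 4.0.16 in R 4.3.3 (robust quasi-likelihood test, group as the only term, two-sided, Benjamini-Hochberg adjustment over all 14862 genes tested). SE was obtained by dividing the size of the log2 fold change by the root of its F statistic. The tests were tried on simulated counts first. Figures used matplotlib 3.10.9 in Python 3.11.15. Alternatives used DESeq2 1.42.0, and limma 3.58.1 on log2(TPM + 1), log2(TPM + 0.1) and log2(FPKM + 1). The members and lists were chosen with earlier results of these data known.

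Values in every library are given for members with a mean of at least 1 CPM that changed at least 2-fold, for Slc3a1 and Slc3a2, and for the 5 members most abundant in TPM. In pathway lists the 3 genes with the smallest adjusted p are named. One tested member and 1 such pathway gene are counted but not reported here by name. Within groups, the chi-square per gene between libraries was 5.30 to 15.6, above sampling noise, so none was treated as a duplicate. Counting depth limits the members under the filter and tested members with few counts in a group, such as Slc1a1, Slc36a2, Slc6a14 and Slc6a13. All 55 members had a RefSeq position and 39 a promoter in the RefSeq table of GRCm38.p6.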

Additional observations from a re-analysis of the deposited data

Results flagged for a closer look

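In 6 of 80 groups of 5 values (40 tested members, 2 groups) the highest or lowest library stood apart from the other 4 by more than 0.71 of the group's range. Chance flags about 1 in 20 groups. For Slc38a9, hypothyroid library 2 had 42.7 CPM, above 25.6 to 29.3 CPM in the other hypothyroid libraries. For Slc43a1, the same library had 17.4 CPM, above 9.05 to 11.3 CPM in the others. For Slc38a3, hypothyroid library 5 had 99.7 CPM, above 86.2 to 89.9 CPM. For Slc38a7, euthyroid library 2 had 23.3 CPM, above 21.2 to 21.5 CPM in the other euthyroid libraries, and for Slc6a4 it had 1.13 CPM, above 0.756 to 0.846 CPM. For Slc6a9, euthyroid library 1 had 25.5 CPM, below 30.2 to 32.1 CPM. Leaving out the library that stood apart did not change the call for Slc38a9, Slc43a1, Slc38a3, Slc38a7, Slc6a4 or Slc6a9.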

How the results depend on the processing

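The settings were the scaling, the filter on low counts, the test, length-adjusted values, a replicate block and leaving out each library in turn. The members split into 15 higher and 15 lower as reported. With library sizes alone the split was 22 and 11, with log2(FPKM + 1) 24 were higher without a filter and 8 lower with one, and leaving out a library gave 14 to 16 higher and 13 to 17 lower. The median log2 fold change of the members (-0.02) was 0.25 with library sizes alone, 0.093 with upper quartile factors, 0.053 with a minimum count of 50, 0.26 with log2(TPM + 1) and with log2(TPM + 0.1), and 0.29 and 0.22 with log2(FPKM + 1) with and without a filter. TPM and FPKM carry no composition factor, as library sizes alone do not. Of all genes, 5603 were higher and 5064 lower. The counts were 8650 and 2928 with library sizes alone, 8930 and 3205 with FPKM without a filter, and 3115, 3114 and 2652 lower with log2(TPM + 1), log2(TPM + 0.1) and filtered FPKM, while leaving out a library gave 5316 to 5539 and 4925 to 5150.

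Among single members, the direction turned in small changes only. With library sizes alone these were Slc36a4 (0.040), Slc38a1 (0.12), Slc6a8 (0.22), Slc7a11 (0.10), Slc7a2 (0.090) and Slc7a7 (0.071), and with upper quartile factors Slc6a8 (0.068). Slc36a1 was -0.0185 with DESeq2 factors in edgeR and -0.0178 with the DESeq2 test. With log2(TPM + 1) they were Slc38a1 (0.076), Slc6a8 (0.18), Slc7a11 (0.042), Slc7a2 (0.047) and Slc7a7 (0.035), and with log2(TPM + 0.1) the same genes at 0.078, 0.18, 0.047, 0.048 and 0.037. With FPKM, filtered or not, they were Slc36a4 (0.035), Slc38a1 (0.11), Slc6a8 (0.21), Slc7a11 (0.063), Slc7a2 (0.082) and Slc7a7 (0.065). With each library left out in turn, Slc36a1 ran from -0.029 (without hypothyroid library 2) to 0.042 (without hypothyroid library 5), and it was below 0 also without euthyroid library 1, 3 or 4 or hypothyroid library 4. Slc38a2 ran from -0.036 (without hypothyroid library 2) to 0.077 (without hypothyroid library 3). Without single libraries, lost calls included those of Slc38a1 and Slc7a4, and calls were gained for Slc7a14 (0.0305), Slc7a2 (0.0287), Slc7a7 (0.0289 and 0.0357) and Slc38a9.

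Same-numbered libraries did not deviate together (correlations of -0.0786 to 0.0927, and only numbers 1 and 5 correlated best with their own number), so the numbers were not taken as pairs. With the replicate block, 14 members were higher and 15 lower (5453 and 4939 of all genes), and the calls that changed included Slc7a4 (adjusted p = 0.0707) and Slc7a2 (0.0436). Low counts limit the 15 members without a test and the tested members with few counts in a group.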

Other observations

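The extreme libraries were unevenly spread over the members. Euthyroid library 3 held the highest euthyroid value in 16 of the 40 tested members (40%), beside 19.7% of all genes tested, and hypothyroid library 2 held the highest hypothyroid value in 13 (32.5%), beside 21.5% of all genes. Euthyroid libraries 1 and 2 each held the lowest euthyroid value in 12 members (30%), beside 18.8% and 23.9% of all genes. These shares are descriptions, and what sets them was not tested.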
